A study of Mus musculus with 4 samples.

Results

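The 48 genes described here encode proteins of the kinetochore, the spindle checkpoint and the chromosomal passenger complex, with the spindle kinases Aurka and Plk1 and the centriole protein Cenpj. They were chosen by name for these roles, with earlier results of these data known. All 48 were found among the 16861 genes listed for each library. The study examined germinal vesicle oocytes, the fully grown oocytes held in prophase of meiosis, and compared the state with a non-surrounded nucleolus (NSN) with the state in which chromatin surrounds the nucleolus (SN). All oocytes were from 3-week-old female C57BL/6J mice. After removal of the cumulus cells, they were held in milrinone, stained with the DNA dye Hoechst and sorted by the pattern of the stain under ultraviolet light. RNA was measured by Smart-seq2 in 2 NSN and 2 SN libraries, each a pool of 15 oocytes freed of the zona pellucida. The protocol in the labels speaks of 3 samples in each group, and 2 of each were analysed here.

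The kinetochore is the protein assembly that ties a chromosome to spindle microtubules. It is built on centromeric nucleosomes that contain the histone variant CENP-A, through an inner layer, the constitutive centromere-associated network, and an outer layer, the KMN network, which binds microtubules. Unattached kinetochores are sensed by the spindle checkpoint, and faulty attachments are released by the Aurora kinase of the chromosomal passenger complex. Germinal vesicle oocytes store many of the transcripts they will translate during the meiotic divisions, when this machinery is used.

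The values are FPKM, read pairs scaled for gene length and library total. The library totals, recovered from the FPKM themselves, were 17408945 and 17911559 read pairs for the NSN libraries and 17069772 and 17998361 for the SN libraries, with replicate 1 before replicate 2 here and in every pair of values. At these totals, 3 read pairs on a gene of 1 kb amount to 0.167 to 0.176 FPKM, a limit that covers counting error only. Read pairs of single genes are given as the smallest whole numbers that yield the deposited values, and the true numbers can be a multiple of them. The FPKM of the 48 genes summed to 4094 and 4066 in NSN oocytes and to 4105 and 4305 in SN oocytes. A level in such pools is RNA relative to the library, so that fewer oocytes holding a transcript and less of it per oocyte cannot be told apart. The cDNA was primed with oligo(dT), and the paper states that transcriptome data mainly cover mRNAs with poly(A) tails. Tails were not measured in these data, so a level is that of the RNA captured in this way.

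The oocyte identity of the libraries was checked with marker genes. Of 12 oocyte markers 11 were listed, with a summed level of 24110 and 22660 FPKM in the NSN libraries and 16630 and 16090 FPKM in the SN libraries, and Zp3 was the most abundant. Of 12 granulosa and cumulus cell markers 8 were listed, with sums of 34.5 and 40.1 FPKM in NSN and 44.2 and 43.1 FPKM in SN oocytes. Most of that signal came from Esr2, at 25.0 to 30.5 FPKM, whereas Amh, Foxl2, Fst and Amhr2 were not listed. Markers of cumulus expansion, with Has2 the most abundant, summed to at most 0.257 FPKM, and those of theca and stroma, led by Star, to at most 0.245 FPKM. The only listed marker of blood and endothelium, Pecam1, was at 4.49 to 4.96 FPKM. The sum of the granulosa list was higher in both SN libraries and that of the oocyte list was lower in both, and their part in the results below was not tested.

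Levels of the 48 genes spanned more than 3 orders of magnitude. The mean over the libraries was at least 100 FPKM for 12 genes, from 10 to 100 FPKM for 25, from 1 to 10 FPKM for 9 and under 1 FPKM for 2, Nsl1 and Cenpb. These 2 genes lay outside the test, which took the 11672 genes with a mean of at least 0.5 FPKM, because Nsl1 had a mean of 0.497 FPKM and Cenpb one of 0.181 FPKM. The median of the 46 members tested was 29.2 FPKM, against 4.45 FPKM for all genes tested. FPKM divide by the gene length that the authors used, so the order of genes by level depends on it. For Mad2l1 and Birc5, that length was at least 4.45 and 3.47 times the length of the canonical transcript, which lowers their FPKM against those of other genes.

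**Figure D1:**
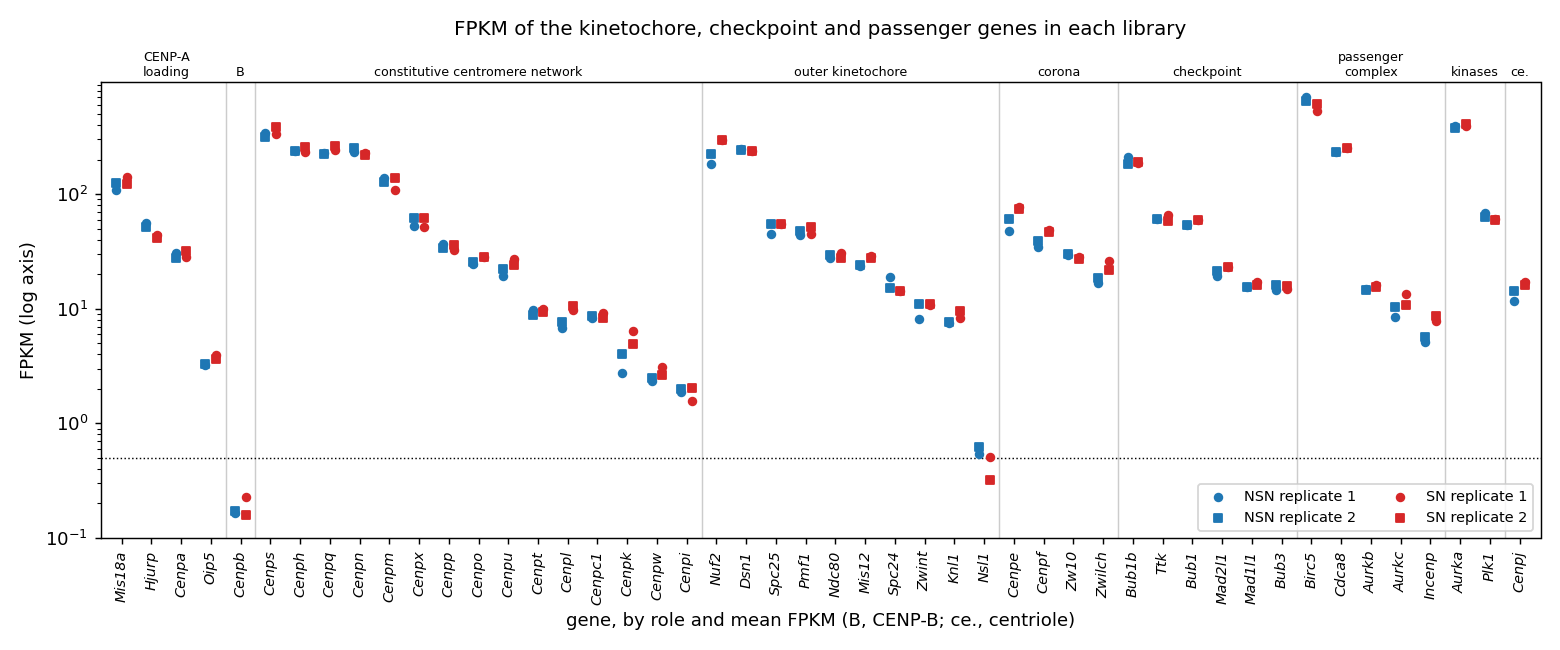
FPKM (log axis) of the 48 genes in each of the 4 libraries, grouped by role and ordered by mean within a role; blue marks are NSN and red marks SN libraries, circles replicate 1 and squares replicate 2, and the dotted line is the filter of 0.5 FPKM. Birc5 and Aurka are the most abundant, Cenpb and Nsl1 are near or under the filter, and for most genes the blue and red marks are close together.

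To ask which transcripts of the chromosome segregation machinery differ in abundance between the configurations, log2(FPKM + 0.5) was compared with limma over all 11672 genes. Calls required a fold change of 1.2 or more and a p, adjusted by the method of Benjamini and Hochberg, under 0.05, and fold changes on this scale are understated for genes of low FPKM. Of the 46 members tested, 2 were called, Nuf2 and Incenp, both higher in SN oocytes. This is 4.35% of the members, beside 7.93% of all genes tested (926 genes, of which 5.95% of those tested were higher and 1.98% lower in SN oocytes). In this fit no member was called lower, and with the filter at a mean of 5 FPKM limma called 1 member lower, Hjurp. An unadjusted p under 0.05 was reached by 10 members with the higher value in SN, against 23.8% of all genes, and by 2 with the lower, against 7.86%, so that 26.1% of the members and 31.7% of all genes had one. Voom, the version of limma for read pairs, called 8 members higher and 1 lower, which is 19.6% of them, against 19.7% of all genes (15.1% higher and 4.58% lower). Both SN libraries lay above both NSN libraries for 23 members, 50.0%, against 44.8% of all genes, and below them for 7 members, 15.2%, against 17.8%. The median log2 fold change was 0.11 over the members and 0.14 over all genes tested. For 35 of the 46 members, 76.1%, the estimated difference was under 1.2-fold, against 54.9% of all genes, whose levels were lower.

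With 2 libraries against 2, permuting the labels of a single gene gives no exact two-sided p under 0.333, so each p rests on the variance that limma pools over genes. Nothing in the sources used here says that the replicates came from separate animals, and the p-values measure the spread between these libraries alone. The scaling of the libraries bears on every direction given here. When each library was divided by the median ratio of its genes, the median log2 fold change of all genes moved from 0.14 to 0.005 and that of the members from 0.11 to -0.05. Limma then called 257 genes, 2.2% of those tested, with 0.668% higher and 1.53% lower in SN oocytes, in place of 695 higher and 231 lower genes. None of the 46 members was among them, with 7 at an unadjusted limma p under 0.05 in each direction, against 12.4% of all genes higher and 14.7% lower in SN. Voom with the same scaling called 3 members higher and 3 lower, 13.0% of them, against 14.6% of all genes (6.38% higher and 8.25% lower). Both SN libraries were then above both NSN libraries for 10 members (29.4% of all genes) and below them for 16 (30.1% of all genes).

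**Figure D2:**
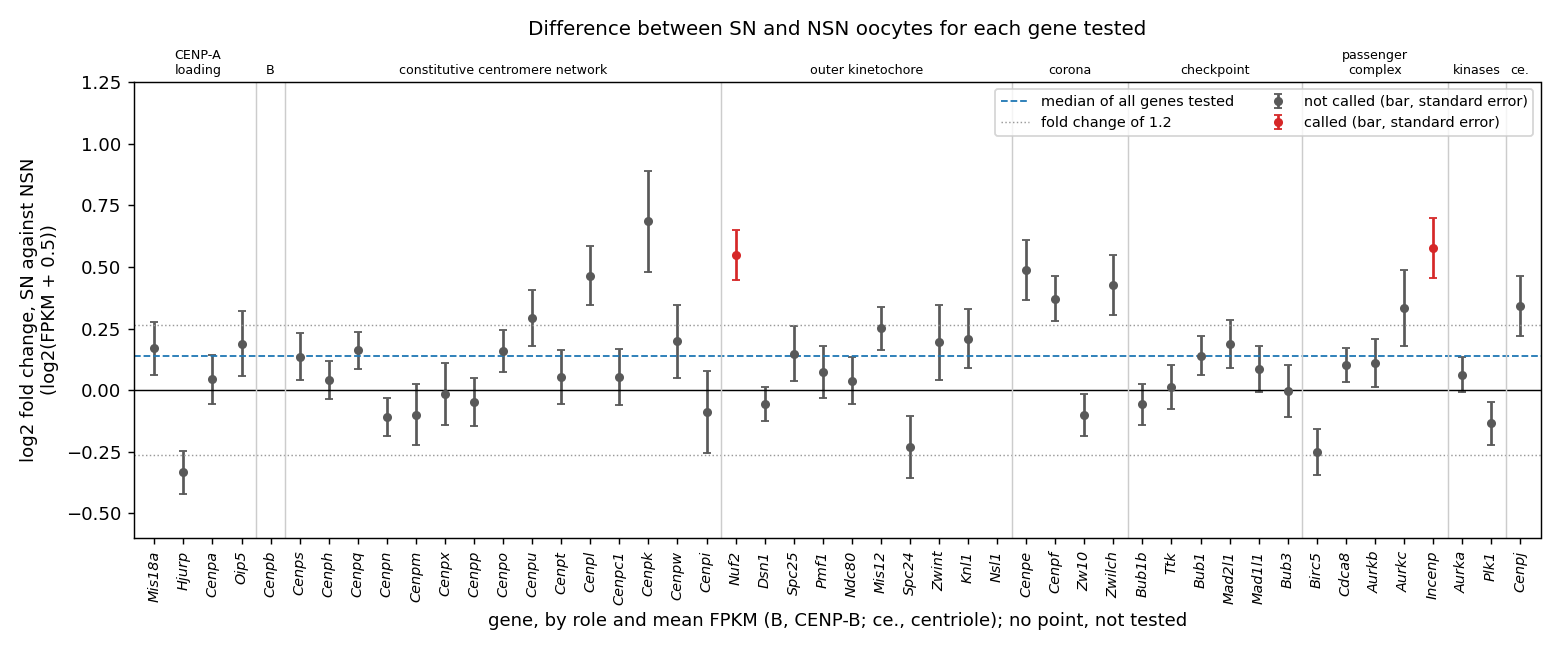
The log2 fold change of SN against NSN oocytes, on log2(FPKM + 0.5), for each of the 46 members tested, with bars of 1 standard error (2 libraries per group), red for called and grey for other genes; dotted lines mark a fold change of 1.2 and the dashed line the median of all genes tested, 0.14. Nuf2 and Incenp are the called genes, and Cenpk has the highest estimate with the widest bar; after median scaling all estimates shift down, limma calls neither gene and voom calls both.

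In the KMN network, Nuf2 was the member with a called difference. Nuf2 pairs with Ndc80 in the rod-shaped NDC80 complex, whose heads bind the microtubule, while Spc24 and Spc25 anchor the other end. Its transcript (ENSMUSG00000026683.16, chromosome 1 of GRCm39 from 169325503 to 169359098) was at 184 and 222 FPKM in NSN and at 294 and 296 FPKM in SN oocytes, on 8838 to 14744 read pairs. The SN libraries were nearly equal, and both lay above both NSN libraries, which differed from each other. The log2 fold change was 0.55 (standard error, SE, 0.10, 95% interval 0.30 to 0.79, limma adjusted p = 0.0388), a rise of 1.46-fold in mean FPKM. After median scaling it was 0.39 with a limma adjusted p of 0.0666, while voom with that scaling called it (0.39, adjusted p = 0.013), and over the alternatives the adjusted p ranged from 0.00169 to 0.113. The call was also lost without NSN replicate 1 (0.41, limma adjusted p = 0.111), without SN replicate 1 (0.55, adjusted p = 0.0736) and without SN replicate 2 (0.54, adjusted p = 0.0946).

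The log2 fold changes of the partners of Nuf2 were lower, at 0.04 for Ndc80, 0.15 for Spc25 and -0.23 for Spc24. Whether they differ from that of Nuf2 was not tested. Ndc80 was at 27.5 and 29.3 FPKM in NSN and at 30.7 and 27.7 FPKM in SN oocytes, so that the groups overlapped. Spc25 was at 44.8 and 54.7 FPKM in NSN and at 55.0 and 54.8 FPKM in SN oocytes, with NSN replicate 1 alone low. In a later GENCODE release than the authors used, 52.5% of its exons are shared with Nostrin, so its level is uncertain. Exon overlaps given here and below may be smaller or larger among the exons that the authors counted. For Spc24, 18.8 and 15.2 FPKM in NSN stood beside 14.3 and 14.3 FPKM in SN oocytes. Both SN libraries were the lower ones, but the log2 fold change of -0.23 (SE 0.13, limma adjusted p = 0.250) did not pass. It was -0.0802 without NSN replicate 1, -0.38 without NSN replicate 2 and -0.38 after median scaling. Ratios within a library do not depend on how libraries are scaled, and those of Nuf2 and Incenp were formed after their values had been seen. The ratio of Nuf2 to Ndc80 in FPKM was 6.68 and 7.59 in NSN and 9.58 and 10.7 in SN oocytes. That of Nuf2 to Spc25 was 4.10 and 4.05 in NSN and 5.34 and 5.41 in SN oocytes, and that of Nuf2 to Spc24 was 9.77 and 14.6 against 20.5 and 20.8. Each of the 3 ratios was higher in both SN libraries. They share Nuf2, so their direction restates its difference without the scaling and says nothing of whether the partners kept their level.

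Of the other KMN genes, Dsn1, a subunit of the MIS12 complex that joins the outer layer to the centromere, was the most abundant, at 249 and 243 FPKM in NSN and 237 and 237 FPKM in SN oocytes. The SN values were the lower ones by a small margin, and the log2 fold change had a 95% interval from -0.22 to 0.11. The remaining members of the network, Mis12, Pmf1, Knl1 and Zwint, had means from 8.27 to 47.0 FPKM, and none was called by limma. Mis12 was the one of these with an unadjusted limma p under 0.05, as 31.7% of all genes had. Nsl1, also of the MIS12 complex, was at 0.540 and 0.622 FPKM in NSN and at 0.506 and 0.320 FPKM in SN oocytes, on 30 to 58 read pairs, and was not tested.

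In the chromosomal passenger complex, Incenp was higher in SN oocytes. Incenp is the scaffold of the complex, and its C-terminal part binds and activates the Aurora kinase. The gene (ENSMUSG00000024660.11, chromosome 19 from 9846569 to 9876924) was at 5.11 and 5.66 FPKM in NSN and at 7.85 and 8.71 FPKM in SN oocytes. The groups did not overlap, and the values rest on at least 289 to 509 read pairs, few beside those of Nuf2. The log2 fold change was 0.58 (SE 0.12, 95% interval 0.28 to 0.87, limma adjusted p = 0.0452), a rise of 1.54-fold in mean FPKM. After median scaling it was 0.43 with a limma adjusted p of 0.0794, while voom with that scaling called it (0.47, adjusted p = 0.0315), and the adjusted p ranged from 0.00693 to 0.162 over the alternatives. Left without NSN replicate 1 it was 0.51 (limma adjusted p = 0.139), without SN replicate 1 it was 0.65 (adjusted p = 0.0993) and without SN replicate 2 it was 0.51 (adjusted p = 0.162), so that the call did not hold in these 3 cases.

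Birc5, or survivin, which brings the passenger complex to the inner centromere, was the most abundant of the 48 genes and stood above 99.1% of all genes tested, within the limit set by its length. It was at 702 and 653 FPKM in NSN and at 527 and 615 FPKM in SN oocytes. Both SN libraries were lower, but they differed from each other by more than the NSN libraries did. Its log2 fold change of -0.25 (SE 0.09, limma adjusted p = 0.128) missed the threshold, and it was called lower only by voom with median scaling (-0.40). Without SN replicate 1 the estimate was -0.14. Cdca8, or borealin, which binds Birc5 and Incenp, was at 234 and 235 FPKM in NSN and at 250 and 254 FPKM in SN oocytes. Here the libraries of each group were close together with the SN pair the higher, and after median scaling the order was the opposite. In FPKM, Incenp relative to Aurkb was 0.345 and 0.390 in NSN and 0.485 and 0.560 in SN oocytes, and relative to Aurkc it was 0.5996 and 0.541 in NSN and 0.583 and 0.812 in SN oocytes. The groups of the second ratio overlapped. Incenp relative to Cdca8 was 0.0218 and 0.0241 in NSN and 0.0313 and 0.0343 in SN oocytes, and Birc5 relative to Cdca8 was 3.00 and 2.78 in NSN and 2.11 and 2.42 in SN oocytes. Of these, the ratio of Incenp was higher and that of Birc5 lower in both SN libraries.

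Mammalian oocytes express all 3 Aurora kinases, and Aurkc is known mainly from germ cells, where it can act in the passenger complex beside Aurkb. Aurka, the kinase of spindle poles, was at 395 and 377 FPKM in NSN and at 396 and 410 FPKM in SN oocytes, although 38.6% of its exons overlap other genes, among them Cstf1 and Fam210b. Aurkb was at 14.8 and 14.5 FPKM in NSN and at 16.2 and 15.6 FPKM in SN oocytes. Aurkc was at 8.52 and 10.4 FPKM in NSN and at 13.5 and 10.7 FPKM in SN oocytes. The level of Aurka was far above that of its paralogues in every library, while Aurkb exceeded Aurkc in every library by at most 1.74-fold. For each of the 3 genes, both SN libraries were above both NSN libraries by small margins, as for 44.8% of all genes, an order that did not hold after median scaling for any of them, and none was called by limma. An annotated pseudogene, Aurkc-ps, lies on the same chromosome as Aurkc, and reads could be divided between them. Plk1, a kinase of spindle assembly and kinetochores, was at 69.1 and 62.6 FPKM in NSN and at 60.8 and 58.9 FPKM in SN oocytes. Both SN libraries were lower, with a log2 fold change of -0.13 (SE 0.09) that did not pass (limma adjusted p = 0.325). It was -0.0639 without NSN replicate 1, -0.20 without NSN replicate 2 and -0.29 after median scaling.

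Among the proteins that maintain centromeric chromatin, Cenpa itself was at 30.4 and 27.9 FPKM in NSN and at 28.5 and 31.7 FPKM in SN oocytes. The groups overlapped, and the 95% interval of its log2 fold change ran from -0.19 to 0.28. Hjurp, the chaperone that deposits CENP-A, was at 56.2 and 51.4 FPKM in NSN and at 43.6 and 41.5 FPKM in SN oocytes. Its SN values were both lower, and the log2 fold change of -0.33 (SE 0.09, limma adjusted p = 0.0641) was the lowest of the 46 members but missed the threshold over all genes. It was called with the stricter filter of a mean of at least 5 FPKM and by voom. The estimate was -0.49 after median scaling (limma adjusted p = 0.0576), and the adjusted p ranged from 0.00656 to 0.241 over the alternatives. Of the exons of Hjurp, 21.3% are shared with Mroh2a and Trpm8. Mis18a, which prepares the centromere for loading, was at 108 and 126 FPKM in NSN and at 140 and 123 FPKM in SN oocytes, with overlapping groups. Oip5, its partner in the MIS18 complex, was 3.24 to 3.95 FPKM over the 4 libraries. Cenpb, whose protein binds a motif of centromeric satellite DNA, was at 0.165 and 0.171 FPKM in NSN and at 0.228 and 0.159 FPKM in SN oocytes, on 14 to 19 read pairs. Its exon lies wholly within annotated exons of Spef1, so that even this low level is uncertain.

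The constitutive centromere network had 15 members, with means from 1.87 FPKM for Cenpi to 344 FPKM for Cenps. Limma with the filter at 0.5 FPKM called none of them, against 7.93% of all genes. An unadjusted limma p under 0.05 was reached by 3 of the 15, and by 31.7% of all genes. With the filter at 5 FPKM limma called Cenpl, and 27.1% of all genes. Voom called Cenpk and Cenpl on the deposited scale, and 19.7% of all genes. With median scaling voom called neither of them but Cenpn, lower in SN oocytes, and 14.6% of all genes. Levels thus differed by over 100-fold among subunits of what is 1 assembly. Cenps, a histone-fold protein, was at 342 and 312 FPKM in NSN and at 333 and 387 FPKM in SN oocytes, and the groups overlapped. Cenpq was at 230 and 223 FPKM in NSN and at 245 and 262 FPKM in SN oocytes, with both SN libraries the higher on the deposited scale, though not after median scaling. For Cenpn, which contacts the CENP-A nucleosome, the values were 232 and 251 FPKM in NSN and 229 and 219 FPKM in SN oocytes. Its SN values were the lower ones, and the log2 fold change was -0.11 (SE 0.08, limma adjusted p = 0.360), which became -0.26 after median scaling, -0.17 without NSN replicate 1 and -0.0542 without NSN replicate 2. Cenpl, the partner of Cenpn, was at 6.77 and 7.73 FPKM in NSN and at 9.83 and 10.5 FPKM in SN oocytes. The SN libraries were both higher, with a log2 fold change of 0.46 (SE 0.12, limma adjusted p = 0.0608). Cenpk, of the subcomplex that also contains Cenph and Cenpi, was at 2.73 and 4.02 FPKM in NSN and at 6.43 and 4.94 FPKM in SN oocytes. It had the highest estimate of the 46 members, 0.68, but also the largest standard error of them, 0.21, on 87 to 201 read pairs, and it did not pass (limma adjusted p = 0.0815). Without NSN replicate 1 it was 0.44, and without NSN replicate 2 both Cenpk and Cenpl were called. The estimate of Cenpl was 0.28 with quantile normalization.

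Cenph was one of the genes that the study measured by RT-PCR to check its RNA-seq data. The RT-PCR values were not compared with the FPKM here. Its FPKM were 239 and 238 in NSN and 234 and 257 in SN oocytes, on 5003 to 5795 read pairs. The NSN values lay between those of the SN libraries, and the log2 fold change was 0.04 (SE 0.08, limma adjusted p = 0.747), with a 95% interval from -0.14 to 0.23. After median scaling the sign turned, to -0.11 (limma adjusted p = 0.433), as it did without SN replicate 2, to -0.0265. Without SN replicate 1 the estimate was 0.11, and over the alternatives the adjusted p ranged from 0.422 to 0.882. The primers are shown because they place the amplicon on the gene. On the minus strand of GRCm39, the forward primer lies at chr13:100903355-100903375 in exon 5 and the reverse primer at chr13:100900072-100900094 in exon 7 of the canonical transcript, so that the product of 145 bases spans introns. Of 19 annotated Cenph transcripts, 15 contain both primer sites, and no other annotated gene does.
Cenph forward: ttgcacttcgggataacatgg
Cenph reverse: ctgacatcaagcagctttttctc

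The corona is the fibrous outermost layer that forms on unattached kinetochores. Cenpe, a kinesin that carries chromosomes along microtubules, was at 47.8 and 60.5 FPKM in NSN and at 76.6 and 74.6 FPKM in SN oocytes. Both SN libraries were higher, with a log2 fold change of 0.49 (SE 0.12), just short of the threshold (limma adjusted p = 0.0570), and 0.32 without NSN replicate 1. Cenpf, a large coiled-coil protein, was at 34.6 and 38.7 FPKM in NSN and at 48.2 and 46.7 FPKM in SN oocytes. Zwilch was at 16.9 and 18.6 FPKM in NSN and at 26.4 and 21.8 FPKM in SN oocytes. For Zw10, which forms the RZZ complex with Zwilch, the values were 29.6 and 30.2 FPKM in NSN and 28.4 and 27.3 FPKM in SN oocytes. Thus 3 of the 4 corona genes had both SN libraries above both NSN libraries, also after median scaling, and Zw10 had both below, in a table where 44.8% of all genes had them above on the deposited scale and 29.4% after median scaling. With the filter at 0.5 FPKM, limma called none of the 4, although 3 had an unadjusted p under 0.05, as did 31.7% of all genes. Cenpe, Cenpf and Zwilch were called with the filter at 5 FPKM and by voom, as were 27.1% and 19.7% of all genes. By voom with median scaling only Cenpe was called, against 14.6% of all genes.

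Of the 6 spindle checkpoint genes, none was called by limma or by voom, beside 7.93% and 19.7% of all genes tested. Bub1b, which encodes BubR1, a part of the inhibitor of the anaphase-promoting complex, was at 209 and 185 FPKM in NSN and at 188 and 190 FPKM in SN oocytes. Ttk, or Mps1, the kinase at the head of the checkpoint, was at 61.0 and 61.2 FPKM in NSN and at 65.2 and 58.1 FPKM in SN oocytes. For both genes the groups overlapped, although both SN libraries were the lower ones after median scaling. Bub1, a kinase that recruits other checkpoint proteins, was at 54.3 and 53.4 FPKM in NSN and at 59.8 and 58.9 FPKM in SN oocytes. Its SN values were both higher, but after median scaling the groups overlapped. The other 3 genes, Mad2l1, Mad1l1 and Bub3, had means from 15.4 to 21.8 FPKM. None of the 6 had an unadjusted limma p under 0.05, as 31.7% of all genes did. The estimates ran from -0.06 to 0.19 on the log2 scale, and from -0.21 to 0.04 after median scaling, when 3 of the 6 had both SN libraries below both NSN libraries, beside 30.1% of all genes. The 95% interval of Mad2l1 ran from -0.0484 to 0.42, and a p above the threshold does not show that levels were equal. Cenpj, a centriole protein named with the CENP family but annotated as Cpap, was at 11.7 and 14.3 FPKM in NSN and at 17.0 and 16.1 FPKM in SN oocytes. Its SN values were the higher ones, and limma did not call it (adjusted p = 0.118), whereas voom did on the deposited scale but not with median scaling.

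The count of members called depended on single libraries, as did that of all genes. Without NSN replicate 1, SN replicate 1 or SN replicate 2, limma called 0 members, with 7, 8 and 12 at an unadjusted p under 0.05 (15.2%, 17.4% and 25.5% of the members, against 19.4%, 24.2% and 23.0% of all genes), and without NSN replicate 2 it called 7, all higher in SN oocytes. The 7 are 15.2% of the members, against 14.4% of all genes in that fit, and in the other 3 fits 0, 153 and 12 of all genes were called. In each of these fits 1 group has a single library, which is assumed to vary like the other group. Cenpe, Cenpf, Cenpj, Cenpk, Cenpl, Incenp and Nuf2 were the genes called without NSN replicate 2.

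A list of 30 other centromere, kinetochore and spindle genes was set beside the members. It was drawn up with earlier results of these data known. Its shares are therefore a description and are not independent of those results. Of the 30 genes, 8 were called, all higher in SN oocytes, which is 26.7% of the list, against 7.93% of all genes tested. In the fits of all 4 libraries on the deposited scale, with genes of at least 0.5 FPKM, no gene of the list was called lower by limma or voom, or had an unadjusted limma p under 0.05 with the lower value in SN, and voom called 12 higher, 40.0% of the list against 15.1% of all genes. The median log2 fold change of the list was 0.31, and 0.18 after median scaling. The called genes included the shugoshins, which protect centromeric cohesin. Sgo2a was at 11.9 and 11.9 FPKM in NSN and at 17.9 and 19.0 FPKM in SN oocytes, with a log2 fold change of 0.61 (SE 0.10, limma adjusted p = 0.0364), and its estimate was 0.46 after median scaling (limma adjusted p = 0.0584, and 0.00151 to 0.111 over the alternatives). Of its exons, 25.6% are shared with Kctd18. Sgo1 was at 12.5 and 13.5 FPKM in NSN and at 18.1 and 20.0 FPKM in SN oocytes, and Sgo2b at 5.54 and 7.15 FPKM in NSN and at 10.5 and 9.82 FPKM in SN oocytes. Both genes had their SN libraries above their NSN libraries, and 18.7% of the exons of Sgo1 are shared with another gene. Bod1, Bod1l, Kif18a and Ckap5 were also called, with log2 fold changes from 0.52 for Kif18a, a kinesin that dampens chromosome movement, to 0.71 for Bod1l. The 3 most abundant genes of the list, Spdl1, Ska3 and Ska1, had means of 124, 82.3 and 75.0 FPKM and were not called. After median scaling limma called none of the 30, against 2.2% of all genes. An unadjusted p under 0.05 was then reached by 11 with the higher and 3 with the lower value in SN, against 12.4% and 14.7% of all genes. Voom with that scaling called 11, 36.7% of the list against 14.6% of all genes. Limma likewise called none without NSN replicate 1, SN replicate 1 or SN replicate 2, with 11, 12 and 11 at an unadjusted p under 0.05 (36.7%, 40.0% and 36.7% of the list, against 19.4%, 24.2% and 23.0% of all genes), and 10 without NSN replicate 2, 33.3% of the list against 14.4% of all genes.

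The promoters of the members were searched for sequence features that their choice did not use. Many genes that peak in the G2 and M phases of the cell cycle have a CCAAT box and a cell cycle homology region (CHR) in the promoter. In the RefSeq promoter table of GRCm38.p6, with 300 bases for each start, 43 of the 48 members matched by symbol, with 48 promoters. Spc24, Nsl1, Zwilch, Aurkb and Incenp were not matched. The CHR letters TTTGAA, on either strand, were found in 39.6% of the member promoters and in 17.9% of all 32851 promoters of the table. CCAAT, on either strand, was found in 66.7% against 37.4%, and both motifs in 33.3% against 7.0%. Most member promoters thus lack the CHR letters, and no test of the difference was made. A match is a description of the letters and not a site of binding. The windows below hold the CHR letters, in capitals, of 4 members that hold both motifs, chosen after their values were seen, and are shown on the strand of the gene. They lie at chr5:30666892-30666917 (Cenpa, plus strand), chr7:122159455-122159480 (Plk1, plus strand), chr1:189688069-189688094 (Cenpf, minus strand) and chr1:88277545-88277570 (Hjurp, minus strand).
Cenpa: cgggtgatttTTTGAActgctggcga
Plk1: cagcgccgcgTTTGAAttcggggagg
Cenpf: cggcgggcagTTTGAAtcgctcgtgc
Hjurp: cgtaaatactTTTGAAagaccctatt
With the filter at 0.5 FPKM, limma called none of these 4 genes, against 7.93% of all genes. An unadjusted limma p under 0.05 was reached by 2 of them, and by 31.7% of all genes. Hjurp and Cenpf were called, lower and higher in SN oocytes, with the filter at 5 FPKM and by voom. Of all genes, 27.1% were called with that filter and 19.7% by voom. The voom call of Cenpf was lost with median scaling, when voom called 14.6% of all genes. The log2 fold changes of the 4 genes ran from -0.33 for Hjurp to 0.37 for Cenpf, with both signs among the estimates.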

How the data were processed

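The submitters' processing notes name Trim Galore 0.6.10, HISAT2, featureCounts, DESeq2 and the build GRCm39. The authors counted read pairs on GENCODE exons without regard to strand, so overlapping genes share signal, and deposited FPKM made from these counts. Library totals and whole read pairs were recovered here for 99.89% of genes (tolerance 1e-06). FPKM were compared with limma 3.58.1 (R 4.3.3; lmFit, eBayes with trend). Named genes were the called members, the 3 most abundant of each role, the 5 highest and 5 lowest estimates, Cenph, Cenpa and the Aurora kinases, and from the other list those called and the 3 most abundant; members named beyond these were chosen after their values were seen. The members and lists were chosen with earlier results of these data known. The test was first checked on simulated data, where small fold changes were mostly missed and wrong calls were more frequent than the threshold implies. Positions and exon overlaps came from a later GENCODE release on GRCm39, promoters from RefSeq on GRCm38.p6. Alternatives covered the pseudocount, filter, scaling, variance model, replicate block, call rule, voom and each library left out. Python 3.11.15, numpy 2.4.6, pandas 2.3.3 and matplotlib 3.10.9 were used. The other assays of the study were not analysed here, and some items are not reported here.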

Additional observations from a re-analysis of the deposited data

How the results depend on the processing

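The counts of calls (926 of all genes, 2 members and 8 of the other list) depended on the settings, and the cause was not tested. In that order, they were 0, 0 and 0 with all listed genes (4092, 12 and 13 at an unadjusted limma p under 0.05), 1496, 7 and 11 at a mean of at least 5 FPKM (27.1% of 5519, 16.7% of 42 and 50.0% of 22 tested), 257, 0 and 0 with median scaling, 230, 1 and 0 with quantile normalization and 0, 0 and 0 without the variance trend (3449, 8 and 15 unadjusted). They were 2370, 8 and 13 when adjusted p up to 0.1 counted, 2297, 9 and 12 with voom and 1706, 6 and 11 with voom and median scaling. A pseudocount of 0.1 gave 773, 2 and 5. With the replicate block they were 422, 1 (Nuf2) and 3, and with the replicate block and median scaling 0, 0 and 0 (2831, 11 and 13 unadjusted). The replicate differences of the groups correlated at -0.07 across 11672 genes. With a single difference per group, this cannot show whether replicates of the same number shared more than that number. Leaving out each library gave 0 to 1680, 0 to 7 and 0 to 10. The median log2 fold change of the members, 0.11, was -0.0459 with median scaling, alone or with the replicate block, -0.0461 with voom and median scaling, 0.0161 with quantile normalization and 0.10 to 0.12 with a library left out. The median level of the members tested, 29.2 FPKM, was 29.5 FPKM after median scaling. Cenph, at 0.04, turned to -0.11 with median scaling, alone, with the block or with voom, and ranged from -0.0265 to 0.11 with a library left out. Over 19 named genes and the other settings, 170 values kept direction and side of the threshold, 58 no longer passed, 15 newly passed and 3 changed sign. Depth limits genes with few read pairs, such as Cenpb, Nsl1 and Cenpk.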
